A study of Mus musculus with 10 samples.

Results

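The genes described here encode the subunits of mitochondrial oxidative phosphorylation that are read from the nuclear genome. They were chosen by symbol, as protein-coding genes of the GENCODE M21 annotation whose names start with Nduf (complex I, NADH dehydrogenase), Sdha to Sdhd (complex II, succinate dehydrogenase), Uqcr (complex III, the cytochrome bc1 complex), Cox4 to Cox8 (complex IV, cytochrome c oxidase) or Atp5 (complex V, ATP synthase), without the Ndufaf assembly factors. Of 86 such genes, 85 were in the deposited table of 45195 genes. Of the 85, 82 reached a value of 1 in 2 or more libraries, and these belong to the 15712 genes of the table that were tested. They were 37 of 38 genes of complex I, 4 of 4 of complex II, 8 of 8 of complex III, 16 of 18 of complex IV and 17 of 17 of complex V. The assignment follows the symbols, so Ndufa4, a protein first described in complex I and later found in complex IV, is counted with complex I.

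RNA came from neurites, the axons and dendrites that mouse cortical neurons grow through a membrane with 3 µm pores while their cell bodies remain on its upper side. The neurons were taken on embryonic day E16.5 from wild-type C57BL/6 embryos or from embryos with floxed Cpeb1 alleles (Cpeb1 flox/flox) on the C57BL/6 background. Neurons of both genotypes, the wild type included, received an adeno-associated virus (AAV2) with Cre recombinase under the CAG promoter, which is active in all cell types. Naive neurites were left intact until day 8, and injured neurites were scraped from the lower side on day 7 and collected with the others, 24 hours later. There were 3 naive wild-type, 3 injured wild-type, 2 naive Cpeb1 knockout and 2 injured Cpeb1 knockout libraries. The labels do not say whether these came from separate cultures, so a p-value here measures the spread between the libraries and no more.

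The respiratory chain passes electrons from NADH and succinate through complexes I to IV to oxygen and pumps protons across the inner mitochondrial membrane. ATP synthase lets the protons flow back and makes ATP. Complexes I, III, IV and V hold a few subunits that are encoded by mitochondrial DNA, and all other subunits are made from nuclear genes and imported. Messenger RNAs of nuclear-encoded mitochondrial proteins are well known in axons, far from the cell body, where mitochondria can be supplied by local translation. Cpeb1 binds the cytoplasmic polyadenylation element, a short U-rich motif in 3′ untranslated regions, and controls poly(A) tail length and translation.

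The values are FPKM, fragments scaled to transcript length and library size, divided by a normalization factor of each library. The subunits read from mitochondrial DNA were not analysed here. The depth, read from the regular steps of low values, was estimated as 21600000 to 28100000 fragments per library. The library factor was lowest in injured wild-type replicate 3 (0.811) and naive Cpeb1 knockout replicate 1 (0.904) and lay between 0.973 and 1.11 in the others. Cpeb1 itself had values of 5.86 to 7.16 in naive wild-type, 1.65 to 22.6 in injured wild-type, 5.97 and 0.356 in naive knockout and 1.14 and 3.15 in injured knockout libraries. Naive knockout replicate 1 was thus within the wild-type range, and the value of the whole gene cannot check the deletion, since no source used here gives the deleted exons. The summed value of 10 pan-neuronal markers was 3422 to 3775, 2175 to 2960, 3992 to 4368 and 3020 to 4042 in the same order of groups. Interneuron markers (12 genes) summed to 520 to 785, 85.4 to 109, 561 to 961 and 89.2 to 158, and astrocyte markers (10 genes) to 2512 to 3123, 2798 to 5548, 3477 to 4521 and 4236 to 4291. Fewer cells of a type and less RNA per cell cannot be told apart in such bulk samples. The microglial markers Cx3cr1 and Tmem119 were listed at 0 in all libraries.

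Oxidative phosphorylation genes were among the most abundant messages of the neurites. Of the 82 genes, 10 were among the 100 tested genes with the highest mean value, 25 among the first 200, 57 among the first 500 and 70 among the first 1000. Together they held 3.61% to 5.10% of the summed value of a library. That share was 4.44%, 4.83% and 4.67% in naive wild-type, 3.80%, 3.61% and 3.73% in injured wild-type, 5.10% and 5.05% in naive knockout and 4.83% and 4.54% in injured knockout libraries. The injured wild-type libraries had the lowest shares, and they also had the largest share of ribosomal RNA gene models, 19.9% to 28.2% against 11.1% to 16.9% in the other libraries. With these models left out of the total, the share was 5.22% to 5.58%, 4.71% to 5.20%, 5.78% and 6.14%, and 5.35% and 5.49%, and injured wild-type libraries remained below the others by a smaller margin.

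**Figure D1:**
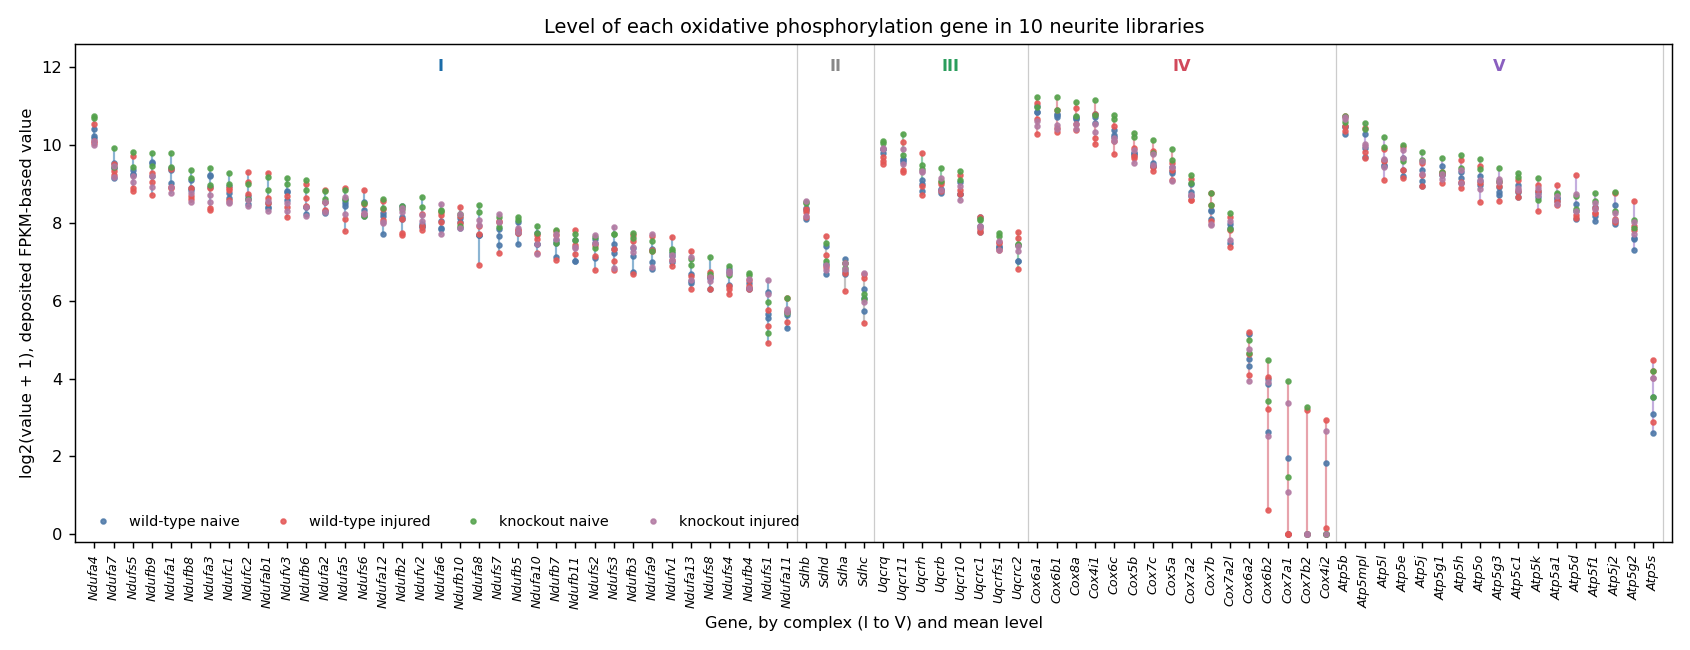
Level of each of the 82 genes in 10 neurite libraries, as log2(value + 1) of the deposited value, with genes grouped by complex and ordered by their mean. Each point is 1 library, coloured by group, and the vertical line spans the lowest to the highest, and most genes keep a narrow range in all libraries, except the restricted isoforms at the low end of complex IV and Atp5s.

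The subunits of cytochrome c oxidase led the list. Cox6a1, the ubiquitous form of subunit VIa, had values of 1854, 1834 and 2070 in naive wild-type, 1644, 1255 and 2163 in injured wild-type, 2398 and 2019 in naive knockout and 1569 and 1445 in injured knockout libraries, with a mean of 1825 that ranked 31 among all tested genes. Its wild-type groups overlapped, and both naive knockout values were above both injured knockout values. Cox6b1 (mean 1691), Cox8a (1657) and Cox4i1 (1582), which encode further small subunits around the catalytic core, ranked 36, 37 and 40. Atp5b, the catalytic beta subunit of ATP synthase, was next with 1443, 1408 and 1251 in naive wild-type, 1447, 1310 and 1721 in injured wild-type, 1712 and 1536 in naive knockout and 1693 and 1634 in injured knockout libraries. All 4 knockout values of Atp5b were above all 3 naive wild-type values. Ndufa4 (mean 1288) and Cox6c (1283) followed.

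Values per length differed between subunits of 1 complex, although the assembled complexes hold most of them in equal numbers. The median of the members' mean values was 279.3 in complex I (from 52.1 for Ndufa11 to 1288 for Ndufa4), 126 in complex II, 503 in complex III, 576 in complex IV and 505 in complex V. Complex II, which has no subunit from mitochondrial DNA and also serves the tricarboxylic acid cycle, had the lowest median, and its 4 genes had the longest transcripts, with a median of 2066 nt against 632 to 955 nt in the other complexes. Within complex II the iron-sulfur subunit Sdhb (mean 324) was above the membrane anchor Sdhd (139), the flavoprotein Sdha (112) and the anchor Sdhc (74.1). In complex III the small subunits Uqcrq (923), Uqcr11 (851) and Uqcrh (597) were above the large core proteins Uqcrc1 (249) and Uqcrc2 (162) and the Rieske iron-sulfur protein Uqcrfs1 (177). In ATP synthase Atp5b (1516) was above Atp5a1 (405), the alpha subunit that alternates with it in the same ring. The ratio of Atp5b to Atp5a1 was 3.11 to 3.70, 3.41 to 3.83, 3.53 and 3.98, and 3.96 and 4.70 in the 4 groups, and so held within each library.

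The genes varied little between libraries of a group. The median SD of log2(value + 1) within groups was 0.24 for the 82 genes. Over the 76 of them with a mean of at least 50 it was also 0.24, against 0.27 for 2066 other tested genes of that level and 0.58 for all tested genes. The widest spread belonged to the isoforms at the edge of detection.

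Isoforms known from muscle, testis, lung or low oxygen were rare beside their ubiquitous partners. Cox6a2, the form of heart and skeletal muscle that is also found in fast-spiking interneurons, was present in every library at 0.914% to 2.79% of the sum with Cox6a1 (median 1.18%). Its values were 34.7, 21.8 and 19.2 in naive wild-type, 16.2, 36.0 and 23.8 in injured wild-type, 30.9 and 24.2 in naive knockout and 14.5 and 26.1 in injured knockout libraries, so the naive and injured libraries of each genotype overlapped. The sums of interneuron markers given above did not overlap between them. Those markers were not chosen for fast-spiking interneurons, and a relation of Cox6a2 to these cells was not tested. The testis form Cox6b2 made up 0.039% to 1.02% of its pair with Cox6b1. The muscle form Cox7a1 was listed at 0 in 5 of 10 libraries. It had 0, 2.89 and 0 in naive wild-type and 0 in each injured wild-type library, but 14.3 and 1.80 in naive knockout and 1.14 and 9.44 in injured knockout libraries. Every knockout library thus listed Cox7a1 and only 1 of 6 wild-type libraries did, with differences between genotypes on log2(value + 1) of 2.06 ± 0.90 (SE) in naive and 2.24 ± 0.90 in injured neurites that did not pass the test (adjusted p = 1 and 0.407, limma).

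Cox4i2, which replaces Cox4i1 in lung and at low oxygen (mean 1.47, at 0 in 6 libraries), and the testis form Cox7b2 (mean 1.69, at 0 in 8 libraries) were the lowest genes inside the filter. Cox8b and Ndufa4l2 were the highest outside it, each listed above 0 only in naive knockout replicate 2, with 2.74 and 0.612. Cox8c was listed at 0 in all libraries.

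Some members cannot be separated cleanly from other gene models. A near-identical copy, with 95% identity or more along 150 nt or more that make up 50% or more of the shorter of both transcripts, was annotated for 24 of the 82 genes, but the copies summed to more than 5% of the member's own mean for only 5. The processed pseudogene Gm12338 matches Cox7c, a small subunit of cytochrome c oxidase, with 100% identity over 192 nt and had a mean of 1093 against 804 for Cox7c itself. Cox7c held 36.7% to 45.3% of their sum. Ndufb4 held 17.8% to 25.01% of its sum with Ndufb4c, Atp5g2 49.96% to 58.9% with Gm10175, and Atp5g1 81.2% to 94.6% with Gm10039. These values depend on how shared fragments were divided. In addition, exons of 19 members overlap other genes over more than 5% of their bases, among them Ndufb6, and the libraries do not mark the strand.

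The fifth copy differed between genotypes. Gm15920, a processed pseudogene at chr5:130188395-130188796 (GRCm38), is 99.5% identical over 402 nt to Ndufa12, which encodes an accessory subunit of complex I and lies on chromosome 10. Gm15920 had values of 0, 1.30 and 0 in naive wild-type and 0 in the 3 injured wild-type libraries, against 118.2 and 104 in naive knockout and 67.7 and 69.2 in injured knockout libraries. No knockout value came near a wild-type value. It passed the test in naive neurites, with a log2 difference of 6.403 ± 0.55 (SE, adjusted p = 4.87e-05, limma), and in injured neurites, with 6.12 ± 0.55 (adjusted p = 9.14e-05, limma). Ndufa12 itself had 210, 288 and 307 in naive wild-type, 268, 330 and 379 in injured wild-type, 391 and 331 in naive knockout and 258 and 256 in injured knockout libraries. Its own difference between genotypes was 0.44 ± 0.21 in naive neurites (adjusted p = 1) and lay on the other side of 0 in injured neurites, at -0.32 ± 0.21 (adjusted p = 0.621). In knockout libraries Ndufa12 held as little as 76.2% of the sum of both genes. The cause was not tested. Gm15920 is no member and was named after its values were seen.

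Injury was compared with no injury within each genotype, and the knockout with wild type within each state, and these comparisons and the interaction were tested with limma, with p-values adjusted over all 15712 tested genes and a threshold of 0.05. Each difference below is on the scale of log2(value + 1), with its SE. No oxidative phosphorylation gene passed the threshold in any of them. The comparisons share groups of libraries, so their results are not independent of each other.

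After injury in wild type, the messages of the respiratory chain differed from naive neurites by less than 2-fold for most genes. Of the 82 genes 0 were called, against 0.948% of all tested genes (149), and the smallest adjusted p was 0.192. At an unadjusted p under 0.05 there were 5 genes, 2 higher and 3 lower, of 2184 such genes in all. The median difference was 0.042 (all tested genes 0.0092), and 46 genes were above 0. For 75 of the 82 genes the 95% interval lay within 1 log2 unit of 0, that is, within a 2-fold change either way. Among all tested genes, most of them of lower level, 18.1% had such an interval. Among other protein-coding genes with a mean of at least 50 it was 66.2% to 76.7% in 5 classes of transcript length.

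Ndufa3, an accessory subunit of the membrane arm of complex I, had the smallest p. It had 484, 593 and 599 in naive wild-type and 323, 333 and 473 in injured wild-type libraries. All injured values were below all naive values, and the difference was -0.58 ± 0.19 (adjusted p = 0.192, limma). Its knockout values were 676 and 502 in naive and 420 and 373 in injured libraries, again without overlap, at -0.55 ± 0.23 (adjusted p = 0.806, limma). Ndufa3 was the gene that passed the test when the values were not divided by the library factor (-0.77, adjusted p = 0.034, limma), a scale on which the median of all genes shifted by -0.13. Ndufb2, another accessory subunit, had 275, 286 and 347 against 212, 205 and 274, with a difference of -0.40 ± 0.17 (adjusted p = 0.314, limma) and no overlap. Ndufc2, also of complex I, went the other way, with 389, 360 and 413 in naive and 428, 526 and 630 in injured libraries, a difference of 0.43 ± 0.17 (adjusted p = 0.296, limma).

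In ATP synthase the smallest p belonged to Atp5g2, one of the genes for the membrane-ring subunit c. Its values were 191, 197 and 159 in naive wild-type and 243, 225 and 380 in injured wild-type libraries, without overlap, and the difference was 0.60 ± 0.21 (adjusted p = 0.232, limma). The highest of these values, 380, was that of injured wild-type replicate 3. In complex III Uqcrq, a small subunit, had 891, 953 and 958 against 770, 727 and 828, with a difference of -0.27 ± 0.13 (adjusted p = 0.363, limma). In complex IV Cox4i1, the ubiquitous subunit IV, had 1780, 1524 and 1691 against 1169, 1052 and 1790 and a difference of -0.35 ± 0.19 (adjusted p = 0.438, limma). Here injured wild-type replicate 3 exceeded every naive library, while both other injured libraries were below all of them. The genes of complex II differed by -0.20 to 0.22, with no unadjusted p under 0.05.

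Across the 82 genes, 3 had injured values all above and 4 all below the naive values in wild type. Among all tested genes 9.78% were entirely higher and 8.02% entirely lower, so both counts (3.66% and 4.88% of the members) were under the background. On values not divided by the library factor 2 were entirely higher and 19 entirely lower, beside 6.79% and 11.4% of all tested genes. Without injured wild-type replicate 3 the counts were 4 higher and 21 lower, beside 14.9% and 13% of all tested genes.

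**Figure D2:**
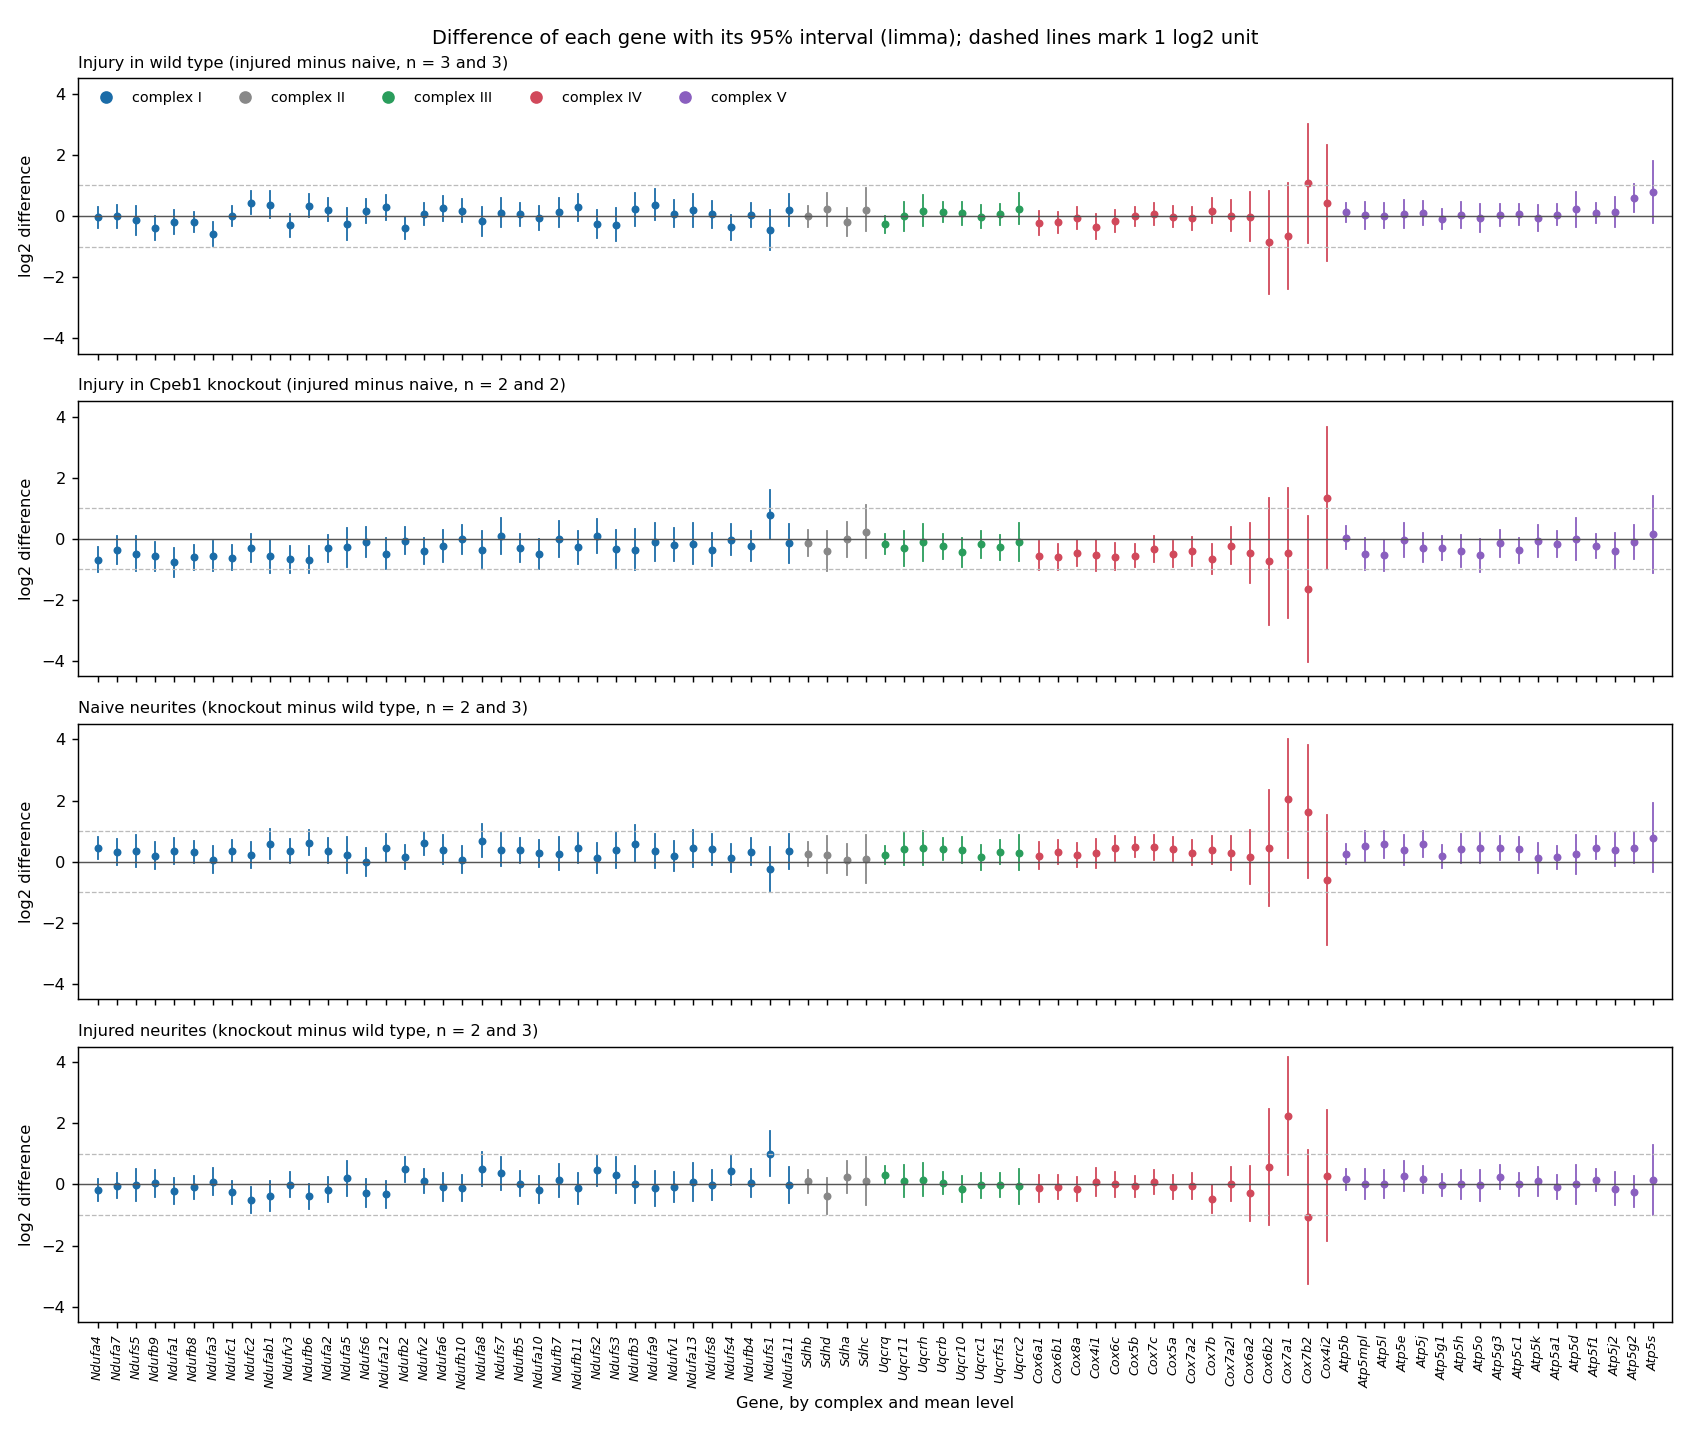
Log2 difference of each of the 82 genes with its 95% interval (limma) in 4 comparisons, injury in wild type, injury in knockout, genotype in naive and genotype in injured neurites, with dashed lines at 1 log2 unit. Intervals within the dashed lines are 75, 53, 67 and 74 of 82, and points in the second panel are mostly below 0 and in the third mostly above it.

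Injury in the knockout gave differences that were small and mostly on the lower side. No gene was called (0 of 82, beside 0.0573% or 9 of all tested genes), with a smallest adjusted p of 0.483. The median was -0.31 (all tested genes -0.087), and 7 of 82 genes were above 0. At an unadjusted p under 0.05 there were 19 genes, all lower, of 900 in all. Values of both injured libraries were below both naive ones for 49 genes and above them for 1. Of all tested genes 22.1% were entirely lower and 13.5% entirely higher, against 59.8% and 1.22% of the members.

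Ndufa4 had the smallest p in this comparison, with 1732 and 1663 in naive knockout and 1095 and 1027 in injured knockout libraries, a difference of -0.68 ± 0.19 (adjusted p = 0.483, limma). Its wild-type values were 1200, 1167 and 1358 in naive and 1097, 1054 and 1487 in injured libraries, so both naive knockout libraries stood above all others, and of the injured knockout libraries 1 lay within the wild-type values and 1 below them. Cox5b, a zinc-binding subunit on the matrix side, had 1275 and 1182 against 936 and 745, a difference of -0.55 ± 0.17 (adjusted p = 0.617, limma). Atp5l, subunit g of the membrane part of ATP synthase, had 1182 and 997 against 696 and 799 (-0.54 ± 0.23, adjusted p = 0.832, limma), and Uqcr10 of complex III 650 and 548 against 387 and 495 (-0.45 ± 0.22, adjusted p = 0.891, limma). Sdhd had 177 and 128 against 109 and 121 (-0.39 ± 0.30, adjusted p = 0.975, limma). Each of these pairs was lower without overlap.

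By complex, the medians after knockout injury were -0.31 for complex I, -0.085 for complex II, -0.22 for complex III, -0.51 for complex IV and -0.23 for complex V. In complex IV 15 of 16 genes were below 0 and 8 had an unadjusted p under 0.05. Within complex I the 7 core subunits, which carry the flavin and iron-sulfur clusters, had a median of -0.20 and the 30 accessory subunits one of -0.33. An unadjusted p under 0.05 was found for 10 of the 30 accessory and 0 of the 7 core genes. Among all tested genes it was found for 900 of 15712, and 7 core genes are too few to compare such counts. A difference between these groups of subunits was not tested.

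Without injury, the genes were mostly higher in the knockout, a comparison that uses the same 2 naive knockout libraries. No gene was called (0 of 82, beside 0.146% or 23 of all tested genes), and the smallest adjusted p was 0.987. The median was 0.35 (all tested genes 0.063), and 79 of 82 genes were above 0. There were 17 genes at an unadjusted p under 0.05, all higher, of 590 in all. Both naive knockout libraries exceeded all 3 naive wild-type libraries for 51 genes (62.2%) and were below them for 0, against 14.1% and 8.51% of all tested genes. For 67 genes the 95% interval stayed within 1 log2 unit.

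Ndufv2, a core subunit with an iron-sulfur cluster, had 243, 239 and 249 in naive wild-type and 337 and 402 in naive knockout libraries (0.59 ± 0.18, adjusted p = 0.987, limma). Atp5j, subunit F6 of the ATP synthase stalk, had 543, 495 and 661 against 898 and 783 (0.58 ± 0.20, adjusted p = 1, limma). Cox5b had 886, 865 and 891 against 1275 and 1182 (0.48 ± 0.16, adjusted p = 1, limma), and Uqcrb of complex III 465, 458 and 438 against 681 and 542 (0.42 ± 0.17, adjusted p = 1, limma). In complex II the smallest p was that of Sdhb, with 333, 273 and 324 against 369 and 361 (0.24 ± 0.18, adjusted p = 1, limma). The knockout values of each of these genes were above all naive wild-type values. Complex medians were 0.35, 0.15, 0.35, 0.34 and 0.42 for complexes I to V.

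The naive knockout libraries differed from each other. Relative to the naive wild-type mean, the median of the 82 genes was 0.47 in naive knockout replicate 1 and 0.22 in replicate 2. In the injured knockout libraries it was 0.014 and 0.031, and in injured wild-type libraries -0.064, -0.15 and 0.25. The libraries with the highest medians in each of these groups, naive knockout replicate 1 and injured wild-type replicate 3, were those with the lowest library factors. Without naive knockout replicate 1 the median difference was 0.22 between genotypes in naive neurites and -0.19 for injury in the knockout. The counts without overlap were then 53 higher and 2 lower in the first (27.3% and 20.1% of all tested genes) and 51 lower and 10 higher in the second (35.7% and 26.1%).

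On values not divided by the library factor, the medians of the libraries were 0.25 and 0.17 in naive knockout, 0.095 and 0.080 in injured knockout and -0.14, -0.26 and -0.11 in injured wild-type libraries. Members without overlap were then 37 higher and 0 lower between naive genotypes (9.87% and 11.7% of all tested genes) and 29 lower and 10 higher for knockout injury (14.9% and 20.4%). Across 6 ways of scaling, the median of the 82 genes minus that of all tested genes kept its sign in 3 comparisons. It ran from 0.13 to 0.29 for the genotype in naive neurites, from 0.050 to 0.14 for the genotype in injured neurites and from -0.23 to -0.15 for injury in the knockout. For injury in wild type it ran from -0.10 to 0.033 and crossed 0. Scales that differ only by a factor per library shift members and all genes nearly alike, so their agreement was largely given. Quantile normalization and removal of a length trend are not of this kind. In the 3 comparisons, in the order above, they gave 0.13, 0.095 and -0.18, and 0.20, 0.051 and -0.23.

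**Figure D3:**
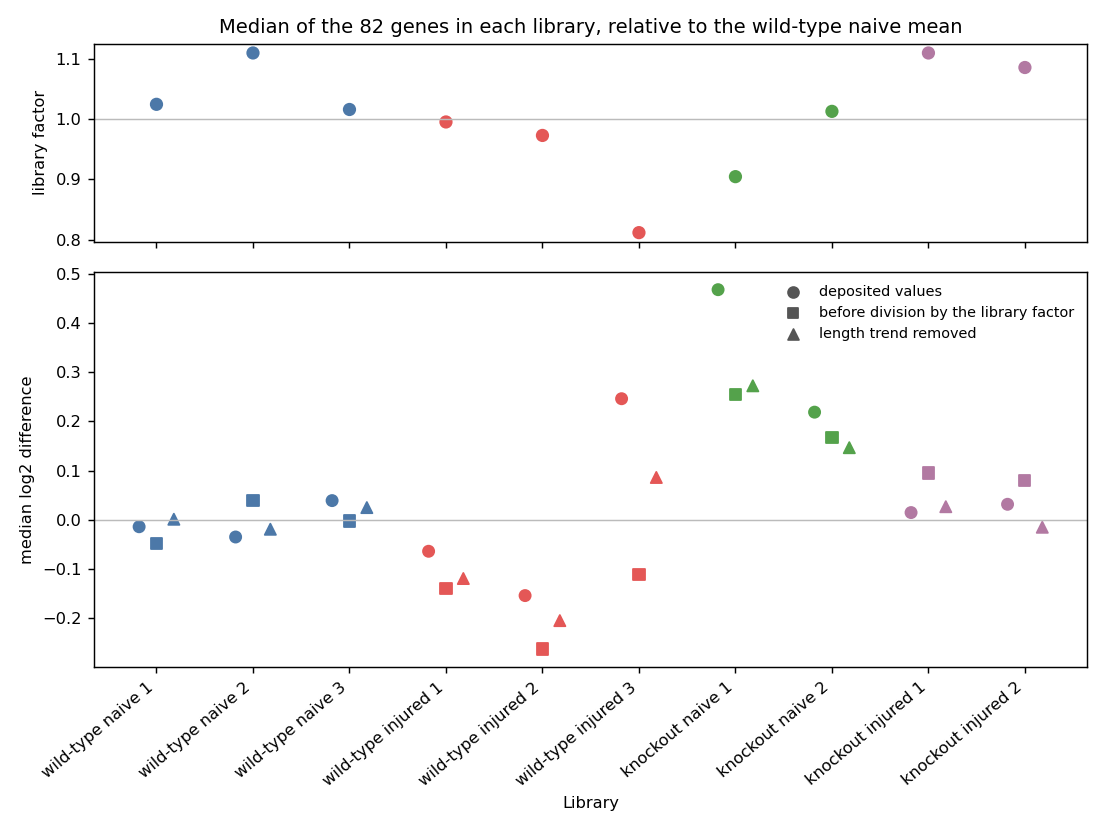
Library factor (upper panel) and median log2 difference of the 82 genes from the naive wild-type mean (lower panel) in each library, for deposited values, values before division by the factor and values with a length trend removed. Naive knockout replicate 1 is highest on all 3 scales, at 0.47, 0.25 and 0.27, and injured wild-type replicate 3 moves from 0.25 to -0.11 and 0.086.

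Short transcripts moved with the same 2 libraries. The 82 genes have short messages, with a median transcript of 787 nt against 3044.5 nt for 13214 tested protein-coding genes. Among other protein-coding genes with a mean of at least 50, the 71 with transcripts under 600 nt had a median of 0.71 in injured wild-type replicate 3 and 0.57 in naive knockout replicate 1, and the 647 in the class of longest transcripts had -0.0014 and 0.093. For the genotype in naive neurites, such other genes had medians of 0.37, 0.29, 0.24, 0.14 and 0.090 from the shortest to the longest of 5 length classes, and the members 0.39, 0.38, 0.35, 0.26 and 0.12. For injury in the knockout, other genes had -0.15, -0.079, -0.075, -0.068 and -0.12, and members -0.41, -0.36, -0.30, -0.18 and -0.040. In the class under 600 nt the members' naive difference was thus close to that of other genes, while their difference after knockout injury was lower. For injury in wild type, other genes of the shortest class had a median of 0.28 and the 22 members of that class 0.016. With a trend on length removed from each library, the members' medians were -0.064 for injury in wild type, -0.23 for injury in the knockout, 0.22 for the genotype in naive and 0.053 in injured neurites. The part of library factor and transcript length in these differences was not tested.

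**Figure D4:**
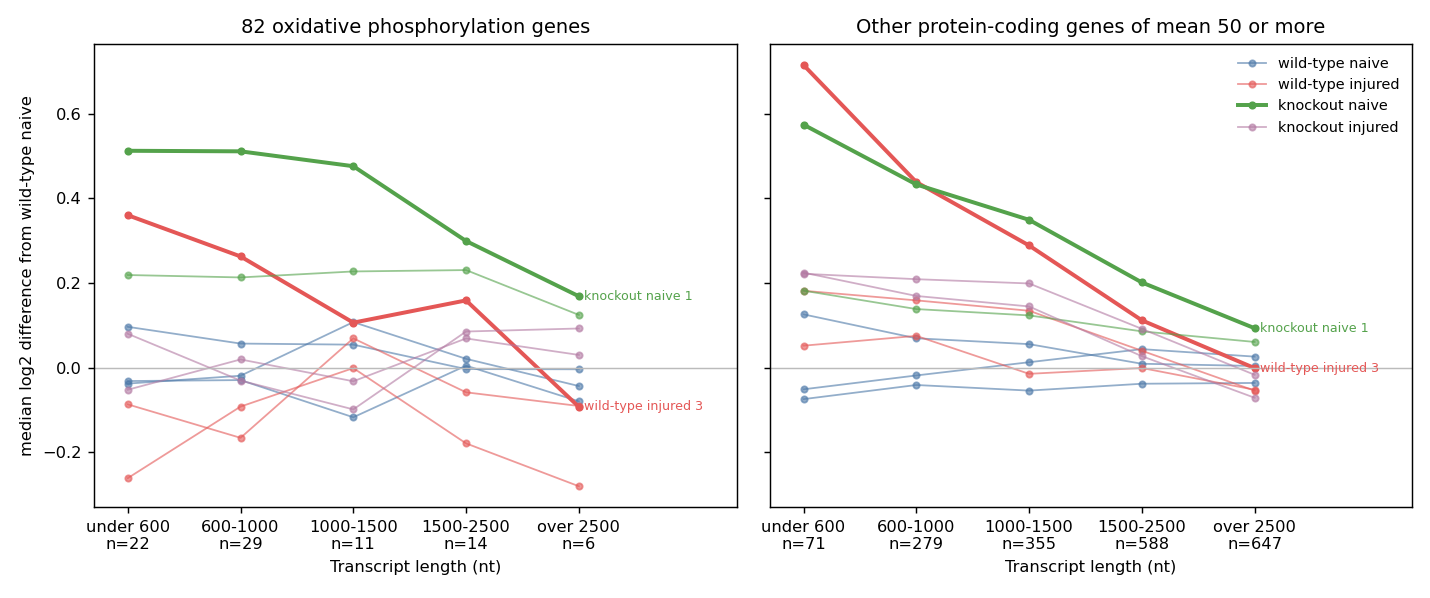
Median log2 difference from naive wild-type in 5 classes of transcript length, for the 82 genes and for other protein-coding genes of mean 50 or more, with 1 line per library. Heavy lines mark injured wild-type replicate 3 and naive knockout replicate 1, whose medians for other genes are 0.71 and 0.57 in the shortest class and -0.0014 and 0.093 in the longest.

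In injured neurites the difference between genotypes depended on the scale. No gene was called (0 of 82, beside 0.261% or 41 of all tested genes), with a smallest adjusted p of 0.325. The median was 0.0013 (all tested genes -0.049), with 42 genes above 0, and 6 genes had an unadjusted p under 0.05, 4 higher and 2 lower, of 1642 in all. Without overlap 8 genes (9.76%) were higher and 5 (6.10%) lower in injured knockout libraries, close to or under the 9.72% and 12.2% of all tested genes. On values not divided by the library factor 29 were higher and 0 lower, beside 16.2% and 7.76% of all tested genes, and the median was 0.25 (all tested genes 0.12). Without injured wild-type replicate 3 these counts were 23 and 5, beside 16% and 18.8%, and the median was 0.12.

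Ndufs1, the largest iron-sulfur subunit of complex I, had the smallest p here. It had 53.2, 29.4 and 40.2 in injured wild-type and 71.3 and 92.5 in injured knockout libraries, without overlap, with a difference of 1.01 ± 0.34 (adjusted p = 0.325, limma). Its naive values were 45.8, 73.6 and 49.4 in wild type and 35.1 and 61.3 in the knockout. Ndufb2 was also higher in the knockout, with 331 and 313 against 212, 205 and 274 (0.49 ± 0.19, adjusted p = 0.372, limma), and Ndufc2 lower, with 384 and 345 against 428, 526 and 630 (-0.52 ± 0.19, adjusted p = 0.372, limma). Uqcrq had 977 and 952 against 770, 727 and 828 (0.32 ± 0.14, adjusted p = 0.456, limma). Atp5g3 differed by 0.25 ± 0.18 (adjusted p = 0.665, limma) and Sdhd by -0.38 ± 0.28 (adjusted p = 0.658, limma).

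The interaction, which subtracts the injury difference of wild type from that of the knockout, called no member (0 of 82) and 0 of all 15712 tested genes (0%). The smallest adjusted p of a member was 0.724, for Ndufb6, an accessory subunit of complex I with 302, 337 and 338 in naive wild-type, 397, 345 and 507 in injured wild-type, 545 and 462 in naive knockout and 338 and 290 in injured knockout libraries. It was higher in injured wild-type and lower in injured knockout neurites without overlap, with an interaction of -1.01 ± 0.27. Exons of Ndufb6 overlap Smim27 over 39% of their bases. Cox7b (-0.84 ± 0.30), Atp5g2 (-0.70 ± 0.33), Sdhd (-0.61 ± 0.39) and Uqcr10 (-0.53 ± 0.28) had the smallest p in their complexes and did not pass (adjusted p = 0.791, 0.800, 0.824 and 0.807, limma). There were 9 members at an unadjusted p under 0.05, 1 higher and 8 lower, of 979 genes in all. The median was -0.35 (all tested genes -0.13). Only 37 of 82 intervals lay within 1 log2 unit, and the intervals of the others do not exclude a 2-fold interaction.

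The balance between cytochrome c oxidase and ATP synthase differed between naive and injured libraries. The summed value of complex IV divided by that of complex V is a ratio within a library that no library factor can change. It was 1.27, 1.33 and 1.27 in naive wild-type (1.29 ± 0.037, SD, n = 3) and 1.17, 1.08 and 1.12 in injured wild-type libraries (1.12 ± 0.045, n = 3). In the knockout it was 1.25 and 1.22 in naive (1.23 ± 0.016, n = 2) and 1.08 and 0.981 in injured libraries (1.03 ± 0.067, n = 2). All 5 injured values were below all 5 naive values. The ratio of complex I to complex V was 1.23 to 1.37 in naive and 1.15 to 1.25 in injured wild-type libraries, which overlapped. In the knockout it was 1.23 and 1.26 in naive and 1.13 and 1.09 in injured libraries, without overlap, so a lower value relative to complex V was not particular to complex IV there. The ratio of complex IV to complex V was chosen after values were seen, and neither ratio has a test.

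The genes with the highest values carry such sums. Cox4i1 divided by Atp5b was 1.23, 1.08 and 1.35 in naive wild-type, 0.808, 0.803 and 1.04 in injured wild-type, 1.33 and 1.15 in naive knockout and 0.881 and 0.786 in injured knockout libraries, again without overlap. Without Cox7c, Atp5g1 and Atp5g2, which have abundant copies, the ratio of the sums was 1.30 to 1.38, 1.12 to 1.197, 1.24 and 1.26, and 0.985 and 1.08. The ratio of median values over members with a mean of at least 50 overlapped, with 1.69 to 1.87 in naive wild-type against 1.60 to 1.78 in injured wild-type and 1.72 and 1.94 against 1.4997 and 1.73 in the knockout. Naive and injured libraries were thus separated in the ratio of sums but not in the ratio of medians. On deposited values the median log2 difference after injury was -0.045 for complex IV and 0.052 for complex V in wild type. In the knockout it was -0.51 and -0.23. A factor per library shifts both complexes alike, so scales that differ only by it cannot change this order. With quantile normalization the medians were -0.19 and -0.13 in wild type and -0.29 and -0.092 in the knockout. With the length trend removed they were -0.15 and 0.0011, and -0.43 and -0.15. Complex IV has the shortest transcripts. Other sums also differed between naive and injured libraries. Ribosomal RNA models and interneuron markers did not overlap between naive and injured wild-type libraries, as given above. The astrocyte sum did overlap, and Fabp7 held most of it, with 2106 to 2580 in naive and 2178 to 4075 in injured wild-type libraries. Taken singly, 9 of the 10 astrocyte markers were above 0 and 1 below after wild-type injury (median 0.86). In the knockout 8 were above and 2 below (median 0.38). Nuclear-retained RNAs of cell bodies (9 genes) summed to 2791 to 4212 in naive and 6113 to 7339 in injured wild-type libraries, and to 2357 to 3249 and 1835 to 2986 in the knockout. Malat1 made up most of these sums, with 1856 to 3440 in naive and 5513 to 6633 in injured wild-type libraries. The median log2 difference of the 9 genes from the naive wild-type mean was -0.30, 0.16 and -0.063 in the injured wild-type libraries, so the list as a whole did not rise. Markers of radial glia and progenitors (8 genes) summed to 130 to 236 and 392 to 732 in wild type, and to 160 to 278 and 229 to 426 in the knockout. The part of transcript length and of these sums in the ratio was not tested.

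**Figure D5:**
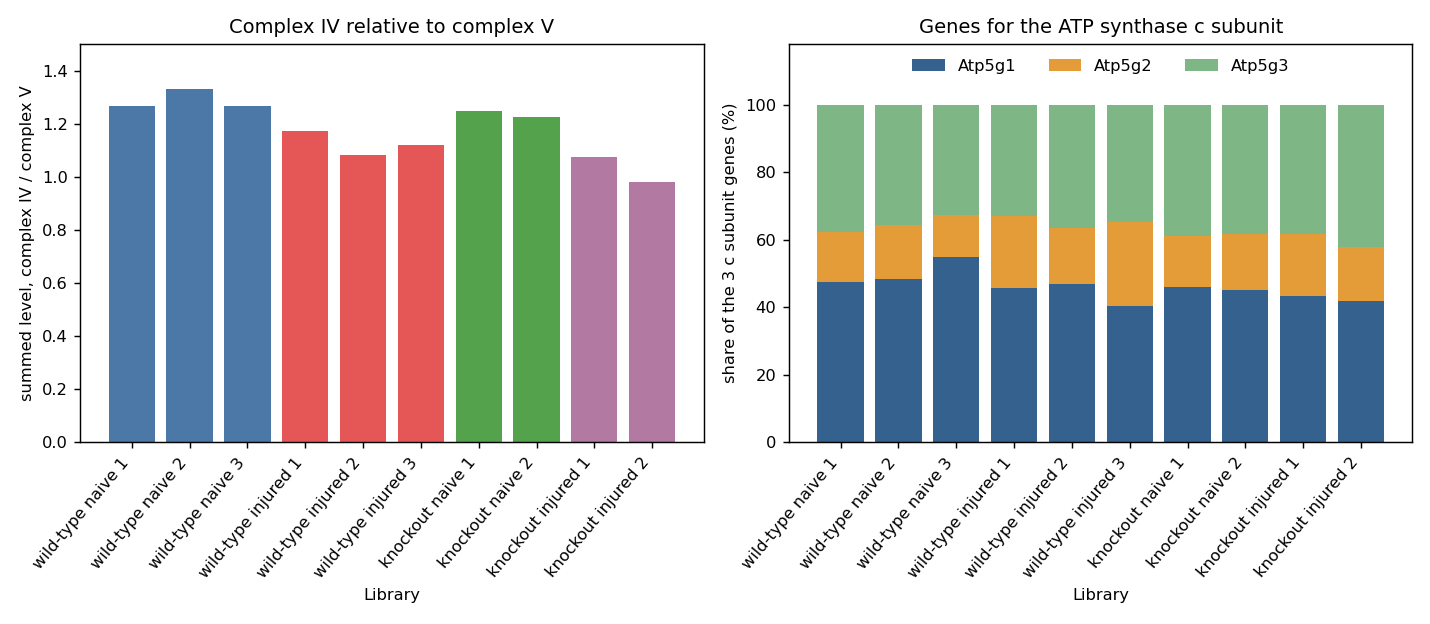
Left, summed value of complex IV divided by that of complex V in each library, with 1.27 to 1.33 and 1.22 to 1.25 in naive and 1.08 to 1.17 and 0.981 to 1.08 in injured libraries of wild type and knockout. Right, share of Atp5g1, Atp5g2 and Atp5g3 in the sum of the 3 genes for the c subunit of ATP synthase, with Atp5g2 at 12.4% to 15.9% in naive wild-type and 16.6% to 25.004% in injured wild-type libraries.

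The c subunit, which forms the rotating membrane ring of ATP synthase, is encoded by Atp5g1, Atp5g2 and Atp5g3. Their mature proteins are identical and only the cleaved import sequences differ. Atp5g1 made up 47.5%, 48.4% and 54.9% of their sum in naive wild-type, 45.8%, 46.9% and 40.4% in injured wild-type, 46.1% and 45.1% in naive knockout and 43.4% and 42.0% in injured knockout libraries. It was lower in all injured libraries of a genotype than in its naive ones. The share of Atp5g2 was 14.9%, 15.9% and 12.4% in naive wild-type and 21.2%, 16.6% and 25.004% in injured wild-type libraries, without overlap, but 15.2% and 16.6% in naive knockout and 18.4% and 15.8% in injured knockout libraries, which overlapped. Atp5g3 made up the rest, 32.7% to 42.2%. The sum of the 3 genes was 1234 to 1283, 1143 to 1519, 1407 and 1758, and 1328 and 1399. Gm10175, the copy of Atp5g2, had 137 to 159 in naive wild-type and 157 to 289 in injured wild-type libraries, and how fragments were divided between them was not tested.

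The 3′ untranslated regions of these genes are short and poor in the element that Cpeb1 binds. Their median length was 199 nt in the longest annotated form, against 1210 nt for tested protein-coding genes. The element, searched as TTTTAT or TTTTAAT on the transcript strand, was found in 17 of 82 genes (20.7%), against 63.0% of 13116 tested protein-coding genes with an annotated 3′ untranslated region and 51.4% of such genes with a mean of at least 50. Among regions under 300 nt, 4 of 55 members (7.27%) held an element, against 18.1% of all and 14.7% of abundant protein-coding genes. Among longer regions 13 of 27 members (48.1%) held one, against 70.3% and 62.2%. Per kilobase the members had 0.716 elements, against 1.31 and 1.24.

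In at least 6 genes an element lay within 100 nt of the annotated 3′ end, the part of the region where such elements are known to act. Positions were not read in every gene with an element, so this count may be too low. The last element of each of the 6 is shown with 9 flanking bases on each side (GRCm38, strand of the gene, the element in capitals). In these members the protein could most directly be sought. They are at chr7:97407716-97407739 for Ndufc2, chr7:122085440-122085463 for Ndufab1, chr13:114287838-114287861 for Ndufs4, chr9:57532333-57532356 for Cox5a, chr7:128205472-128205495 for Cox6a2 and chr12:69744611-69744634 for Atp5s.
Ndufc2: ttttctgagTTTTATgggattttc
Ndufab1: tttcagactTTTTATtaacaataa
Ndufs4: atggagatcTTTTATtcttaggaa
Cox5a: ctggaaatgTTTTATttgaacaaa
Cox6a2: gcattttcaTTTTATtttttaaaa
Atp5s: aaaaatgaaTTTTATatctagaaa
The element ended 72, 46, 52, 79, 46 and 35 nt before the annotated end in the order shown.

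Genes with and without the element are given side by side, and a difference between them was not tested. The 17 with an element had median differences of -0.0096 for injury in wild type, -0.30 for injury in the knockout, 0.31 for the genotype in naive and -0.069 in injured neurites. The other 65 had 0.044, -0.33, 0.36 and 0.0093. The median interaction was -0.47 with and -0.34 without an element. At an unadjusted p under 0.05 there were 3 of 17 genes with and 2 of 65 without an element for injury in wild type, and 4 of 17 and 5 of 65 for the interaction. Among all tested protein-coding genes there were 1130 of 8260 with and 741 of 4856 without an element for injury in wild type. For the interaction there were 482 and 329 of them, so the background showed no higher share with an element. Among those shown, Ndufab1, the mitochondrial acyl carrier protein that also sits in complex I, had 340, 366 and 335 in naive wild-type, 363, 400.7 and 623 in injured wild-type, 583 and 456 in naive knockout and 315 and 379 in injured knockout libraries. Its genotype difference was 0.57 ± 0.22 in naive (adjusted p = 1, limma) and -0.38 ± 0.22 in injured neurites (adjusted p = 0.590, limma). Ndufs4, an accessory subunit whose loss is a known cause of Leigh syndrome, had 107, 83.2 and 112, then 77.8, 71.1 and 82.6, then 117.6 and 101, and last 104 and 108 in the same order of groups. Its difference between genotypes was 0.12 ± 0.21 and 0.46 ± 0.21, with adjusted p = 1 and 0.481 (limma). Cox5a, a subunit on the matrix side, had 643, 690 and 624, then 655, 547 and 739, then 947 and 785, and last 695 and 539.

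The promoters were searched because nuclear respiratory factor 1, GABP (an Ets factor) and YY1 are textbook activators of these genes. Promoters from RefSeq (GRCm38.p6, 250 bases before to 50 after the start site) matched 67 of the 82 genes. The core of the nuclear respiratory factor 1 site, CGCATGCG, was found on either strand in 9 of 67 (13.4%), against 2.07% of all 27025 promoters and 6.22% of 1544 promoters of other tested protein-coding genes with a mean of at least 50. The Ets core CCGGAAG was in 16 (23.9%), against 9.93% and 27.2%, and the YY1 core AANATGGC in 17 (25.4%), against 6.96% and 12.5%. At least 1 of them was in 35 promoters (52.2%), against 17.3% and 40.1%. The first and the last motif were thus more frequent than in both sets of promoters, and the Ets core more frequent than in all promoters but not than in those of other abundant genes. The last 3 letters of CCGGAAG can be the first 3 of a YY1 core, so that 1 stretch can match both. A match describes letters and not a bound site.

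Stretches are shown for Atp5j, which held all 3 motifs, and for the abundant Cox6a1 and Atp5l, which held the first and the Ets core. Letters are given on the gene's strand, upstream of the start site, with motif matches in capitals, at chr16:84835016-84835138 for Atp5j, chr5:115348959-115349134 for Cox6a1 and chr9:44920933-44920992 for Atp5l, all on the minus strand.
Atp5j: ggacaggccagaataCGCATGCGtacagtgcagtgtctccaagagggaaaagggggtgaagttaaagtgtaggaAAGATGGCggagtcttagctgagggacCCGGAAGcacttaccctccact
Cox6a1: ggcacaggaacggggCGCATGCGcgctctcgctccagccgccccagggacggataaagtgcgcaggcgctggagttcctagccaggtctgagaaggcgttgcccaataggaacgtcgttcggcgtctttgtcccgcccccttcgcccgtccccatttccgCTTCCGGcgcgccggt
Atp5l: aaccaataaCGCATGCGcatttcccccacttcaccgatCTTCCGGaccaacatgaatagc
CTTCCGG is CCGGAAG on the other strand. The stretch of Atp5j lies within the annotated span of Gabpa (chr16:84834925-84863779), the DNA-binding part of GABP, which is transcribed in the other direction. Gabpa had values of 2.52 to 10.5, Nrf1 of 3.53 to 17.9 and the coactivator Ppargc1a of 0.055 to 9.42 in the 10 libraries.

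Of the other genes of the pathway 0 were called in any comparison, beside the 0% to 0.948% of all tested genes given above. The lists were chosen with earlier results of these data known. Among 44 assembly factors the smallest p after wild-type injury was that of Cox17, the copper chaperone of cytochrome c oxidase, with 86.3, 73.4 and 93.5 in naive and 126, 159 and 131 in injured libraries (0.71 ± 0.19, adjusted p = 0.112, limma). Its knockout values were 110 and 95.04 in naive and 86.8 and 94.4 in injured libraries, so both injured values were below both naive ones, by a small margin. Median differences of the assembly factors were 0.16, -0.16, 0.33 and 0.051 for injury in wild type and knockout and genotype in naive and injured neurites.

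Among 10 further subunits and electron carriers Atpif1, the inhibitor of ATP synthase, was as abundant as the highest members. It had 1450, 1396 and 1574 in naive wild-type, 1137, 1213 and 1207 in injured wild-type, 2230 and 1746 in naive knockout and 1535 and 1324 in injured knockout libraries. Injured values were below naive ones in both genotypes, with differences of -0.31 ± 0.14 (adjusted p = 0.336, limma) and -0.47 ± 0.17 (adjusted p = 0.752, limma). Usmg5, in the same list, was also abundant. It had 1837, 1754 and 2002 in naive wild-type and 1563, 1246 and 2031 in injured wild-type libraries. Its knockout values were 2501 and 2003 in naive and 1399 and 1440 in injured libraries. The symbol rule leaves it out, so the sums per complex do not include it. The 10 genes had medians of -0.19, -0.10, 0.24 and 0.22. Cyc1, the cytochrome c1 subunit of complex III that the symbol rule leaves out, had a mean of 252, and Cycs, somatic cytochrome c, one of 57.5. The 21 genes of the tricarboxylic acid cycle and pyruvate entry had medians of -0.067, -0.025, 0.11 and 0.18 in the same order of comparisons, and Idh2 had the smallest p after wild-type injury (0.86 ± 0.31, adjusted p = 0.240, limma).

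The 77 genes of the mitochondrial ribosome, which translates the partner subunits inside the organelle, had medians of 0.061, 0.048, 0.31 and 0.21, and Mrps6 had the smallest p (0.78 ± 0.23, adjusted p = 0.168, limma). Import and membrane proteins (25 genes) had 0.069, -0.0068, 0.087 and 0.11, with the import receptor Tomm70a at -1.21 ± 0.37 (adjusted p = 0.175, limma). Regulators (18 genes) had -0.11, -0.12, 0.18 and -0.34, with Yy1 at 1.14 ± 0.48 (adjusted p = 0.317, limma). The list of RNA-binding proteins and transport adaptors (13 genes) had -0.030, -0.20, -0.028 and 0.067, with Clu at 1.15 ± 0.31 (adjusted p = 0.122, limma). Clu was on this list but encodes the secreted chaperone clusterin, which is of neither kind. Clu had its highest value, 400.3, in injured wild-type replicate 3, the library with the highest astrocyte marker sum. After knockout injury 75 of 82 subunits, 31 of 44 assembly factors and 38 of 77 genes of the mitochondrial ribosome were below 0. So were 8822 of all 15712 tested genes, and 48 of 71 other protein-coding genes of mean 50 or more with transcripts under 600 nt. The difference between these lists was not tested.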

How the data were processed

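Poly(A) RNA of neurites was amplified by Smart-seq2 (1 ng of RNA, 14 cycles of PCR, 500 pg of cDNA tagmented, 11 further cycles), per the labels' protocols, a method that does not mark the strand. The submitters' processing notes name STAR 2.4.2a, RSEM 1.2.21 and the mm10 genome. The deposited values were taken as FPKM from the authors, divided by a TMM factor per library. That is read from the values and not stated: the factor found in each library matched a TMM factor computed anew to within 5.25e-08. Depth was estimated from the steps of low values with fragment lengths of 252 to 304 nt, and another window of gene lengths changed it by at most 4.85%. No counts were used.

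Tests were made with limma 3.58.1 (R 4.3.3, eBayes with a mean-variance trend, residual df 6, prior df 6.80) on log2(value + 1), as 1 model with 4 group means and 10 libraries, for genes reaching 1 in 2 or more of them, with Benjamini-Hochberg adjustment across all tested genes. The fit was tested on simulated data. Of the gene IDs, 44548 matched GENCODE M21 (GRCm38), which gave transcripts and untranslated regions, and blastn 2.17.0 was used to search for copies. The members and lists were chosen with earlier results of these data known. Genes named are, in each complex, the 3 highest by mean and the 3 with the smallest p after wild-type injury, the gene with the smallest p in each other comparison, the isoform pairs, those next to the filter, and 1 gene of each other list. Others were chosen after their values were seen. Alternatives were other pseudocounts, filters, scalings, a fit without the trend, fewer groups, a replicate block, genes without copies, each library left out and, chosen after seeing the data, undivided values, a length trend removed and both libraries of lowest factor left out.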

Additional observations from a re-analysis of the deposited data

How the results depend on the processing

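Members called stayed at 0 in the 5 comparisons under all alternatives except 3 for injury in wild type, where 1 was called after quantile normalization, 4 with equal totals and 1 on undivided values. These were Ndufa3 (-0.76, -0.88 and -0.77, adjusted p = 0.0232, 0.0142 and 0.034, limma) and, with equal totals only, Ndufb2 (-0.69, adjusted p = 0.0442), Cox4i1 (-0.65, adjusted p = 0.0248) and Cox6b1 (-0.50, adjusted p = 0.0443). Equal totals shifted the median of all genes in that comparison by -0.21, and the cause was not tested. The members' median for injury in wild type was -0.13 with quantile normalization, -0.25 with equal totals and -0.14 on undivided values. For injury in the knockout it was -0.054 with equal totals and -0.12 undivided, for the genotype in naive neurites 0.12 with quantile normalization and 0.14 with equal totals, and for the genotype in injured neurites 0.34 with equal totals and 0.25 undivided. The median interaction was -0.018 (quantile normalization), -0.18 (median-ratio scaling), 0.20 (equal totals), 0.031 (undivided), -0.18 (length trend removed) and -0.091 (without both libraries of lowest factor). Leaving out each library in turn gave medians of -0.086 to 0.10, -0.42 to -0.19, 0.22 to 0.47, -0.094 to 0.12 and -0.46 to -0.22 in the 5 comparisons, with 0 members called each time, and a group left with 1 library is assumed to vary like the others. Signs turned after wild-type injury for Uqcrb (-0.098 with quantile normalization, -0.16 with equal totals, -0.056 undivided), Atp5b (-0.17 with equal totals, -0.065 undivided), Sdhc (-0.087 with equal totals, -0.023 to 0.60 with each library left out, the lowest without injured wild-type replicate 1), Sdhd (-0.069) and Uqcrc2 (-0.051, both with equal totals), and for the interaction of Uqcr10 (0.020 with equal totals). Of 827 values for single genes 811 kept direction and side of the threshold.

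Over all tested genes the counts called were 149, 9, 23, 41 and 0. With only the groups compared they were 17, 0, 15 and 15 in the first 4 comparisons. Without a filter 25, 33, 52 and, for the interaction, 13 were called in the comparisons whose count moved by over 1.5 times, and without the mean-variance trend 77 for injury in wild type, 1 for injury in the knockout and 3 for the interaction. Protein-coding genes without a copy gave 0 and 4 for the genotype in naive and injured neurites. Leaving out both libraries of lowest factor gave 18 and 0 for injury in wild type and knockout. For injury in the knockout a pseudocount of 0.1 gave 1, quantile normalization 4 and the replicate block 5. Leaving out each library gave 35 (without naive wild-type replicate 1) to 306 (without injured wild-type replicate 2), 0 to 20 (without injured wild-type replicate 3), 15 (without naive knockout replicate 2) to 26, 25 (without injured knockout replicate 2) to 57, and 0 to 2. Replicate numbers did not pair libraries (residual correlations of -0.048 to 0.041 over 13 pairs with the same number and -0.051 to 0.051 over 24 others). With the replicate block 0 members were called in each comparison, and medians were 0.042, -0.31, 0.42, 0.068 and -0.35. With 2 libraries in each knockout group, the intervals of 53 of 82 members after knockout injury and of 37 for the interaction stayed within 1 log2 unit.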
